A study of Homo sapiens with 4 samples.

Results

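Transcript levels of 10 genes of the BCL2 family were compared between MDA-MB-231 cells given MGH-CP1 and cells given vehicle. The genes were taken from the deposited expression table by symbol, and each symbol matched 1 row: 3 pro-survival genes (BCL2, BCL2L1, MCL1), 2 effectors (BAX, BAK1) and 5 BH3-only genes (BCL2L11, BMF, BBC3, PMAIP1, BID). They are 10 of the 48162 genes in the table, and all 10 are among the 12080 genes with a mean of at least 1 FPKM over the 4 libraries, the filter for testing. FPKM is the number of fragments per kilobase of gene length, scaled to the number of fragments on genes in the library. MDA-MB-231 is a human breast cancer cell line that lacks the oestrogen and progesterone receptors. MGH-CP1 blocks the palmitoylation of TEAD, the transcription factor partner of YAP and TAZ. One group of 2 libraries came from cells kept for 24 h with MGH-CP1, at 10 µM per the labels, while the methods text writes the same figure in mM. The other group of 2 libraries came from the same line with the vehicle control for 24 h, and no genetic change is stated for either. The line was grown in culture without host cells, and nothing in the labels says that the 2 libraries of a group came from separate cultures, so p-values measure only the spread between these libraries, which may be technical.

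The BCL2 family sets whether the outer mitochondrial membrane stays intact. Effectors form pores in that membrane and release cytochrome c, pro-survival proteins bind and hold the effectors and the BH3-only proteins, and BH3-only proteins either block the pro-survival proteins or activate the effectors. Much of this control lies in binding and protein turnover, so a transcript level is not a measure of the active protein. In bulk RNA, fewer cells of a kind and less RNA per cell cannot be told apart.

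The libraries hold 25455533 and 25508824 fragments on genes for the vehicle control and 17997221 and 17577930 for MGH-CP1, so the treated libraries are shallower. Of the mesenchymal markers of the line, VIM lay between 259 and 281 FPKM and CD44 between 198 and 221. Of 4 epithelial and luminal genes, EPCAM alone passed the filter (12.4 to 16.4 FPKM), and ESR1 and PGR were at or below 0.0243 FPKM in every library. Of 4 leukocyte markers, CD3E was listed at 0, and the sum of the 4 was 1.79 to 2.46 FPKM in the vehicle libraries and 3.32 to 4.09 with MGH-CP1, nearly all of it CD14. CD14 passed the test (log2 change 0.59, limma adjusted p = 0.00715), and its part in the results below was not tested. CDH5, the 1 endothelial marker found of 2 looked for, was listed at 0. The TEAD targets CYR61, CTGF and ANKRD1 fell by 0.75, 0.66 and 0.66 on the log2(FPKM + 1) scale.

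Across the family, 3 BH3-only transcripts and the effector BAK1 rose, while the pro-survival BCL2 and the BH3-only BCL2L11 fell. Each gene was compared with limma on log2(FPKM + 1), with Benjamini-Hochberg adjustment over the 12080 genes and a threshold of 0.05, and log2 changes below are MGH-CP1 minus vehicle on that scale. Of the 10 genes, 4 rose (BAK1, BMF, BBC3, BID), 2 fell (BCL2, BCL2L11) and 4 did not pass. Among all genes tested, 27.1% rose and 23.8% fell, so 6 of 10 called, or 60.0%, is near the 50.8% of the whole table, and the number of calls is no result about the family. The MGH-CP1 libraries both lay above both vehicle libraries for 7 of the genes and below them for 3. The same held for 39.8% and 37.4% of all genes tested. The median log2 change was 0.12 over the 10 genes and 0.01 over all genes.

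**Figure D1:**
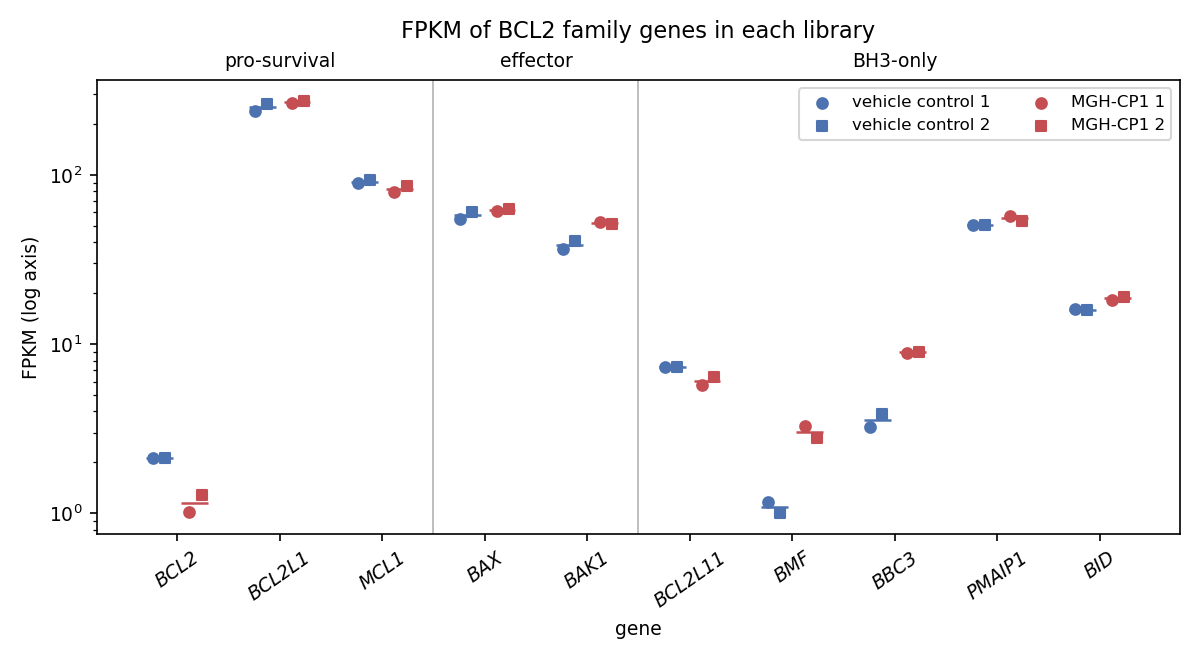
FPKM of each of the 10 genes in each library on a log axis, grouped by role, with 1 point per library and a bar at each group mean (n = 2). BBC3 and BMF lie higher in both MGH-CP1 libraries (8.92 and 9.04 FPKM for BBC3 against 3.25 and 3.86), BCL2 lies lower (1.01 and 1.28 against 2.11 and 2.12), and BCL2L1 is the most abundant in every library.

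Among the pro-survival genes, BCL2, the founding member of the family, was the only one of the 3 that passed the test. BCL2 (ENSG00000171791, hg19 chr18:60790579-60987361, minus strand) measured 2.11 and 2.12 FPKM in the vehicle libraries and 1.01 and 1.28 FPKM with MGH-CP1. Both treated libraries lay below both controls, and the transcript was already among the scarcer ones, since 92.1% of the genes tested had a higher mean. Its mean went from 2.12 ± 0.00803 to 1.15 ± 0.190 FPKM (SD, n = 2), a ratio of 0.542, and the log2 change was -0.54 with a standard error of 0.12 (limma adjusted p = 0.00615). These levels rest on 136 to 404 fragments per library, and 2 intronic genes that overlap BCL2 had at most 3. Only 4.99% of the genes tested had a more negative log2 change. The call was lost with no filter on low values (limma adjusted p = 0.0539).

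BCL2L1, which encodes BCL-XL and, by splicing, a shorter form with the opposite role, was by far the most abundant family transcript. BCL2L1 (ENSG00000171552, chr20:30252255-30311792, minus strand) measured 240 and 263 FPKM with vehicle and 267 and 275 FPKM with MGH-CP1. The treated libraries lay above the controls, but by less than the gap between the vehicle libraries themselves. The log2 change was 0.11 with a 95% interval from -0.02 to 0.24, and it did not pass (limma adjusted p = 0.135). Quantile normalization turned its direction (log2 change -0.02), and it passed without the second vehicle library (0.18, limma adjusted p = 0.0189). BCL2L1 overlaps 2 genes on the other strand, with 0 to 12 and 0 to 4 fragments in the libraries, and gene-level FPKM does not separate its splice forms.

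MCL1, a short-lived pro-survival protein that is turned over by the proteasome, lay slightly lower with MGH-CP1. MCL1 (ENSG00000143384, chr1:150547032-150552066, minus strand) measured 90.0 and 92.7 FPKM with vehicle and 79.4 and 86.2 FPKM with MGH-CP1. The groups did not overlap. The log2 change was -0.14, with an interval from -0.27 to -0.02, and the gene missed the threshold after adjustment (limma adjusted p = 0.0601). It crossed the threshold under several other settings, among them median-ratio scaling (limma adjusted p = 0.0472) and the fit without the second MGH-CP1 library (-0.20, limma adjusted p = 0.0417).

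The effectors BAX and BAK1, which form the pores, did not give the same result. BAK1 (ENSG00000030110, chr6:33540329-33548019, minus strand) measured 36.5 and 40.9 FPKM with vehicle and 53.0 and 51.4 FPKM with MGH-CP1. Both treated libraries lay well above both controls, and the mean rose from 38.7 ± 3.10 to 52.2 ± 1.12 FPKM (SD, n = 2), a ratio of 1.35. The log2 change was 0.42 with a standard error of 0.06 (limma adjusted p = 0.000938), and 14.0% of the genes tested had a larger one. BAX (ENSG00000087088, chr19:49458072-49465055, plus strand) measured 54.7 and 60.5 FPKM with vehicle and 61.2 and 63.0 FPKM with MGH-CP1. The second vehicle library nearly reached the treated ones. The log2 change of BAX was 0.11 with an interval from -0.03 to 0.24 (limma adjusted p = 0.161), and it passed without that library (0.18, limma adjusted p = 0.0301). The difference between the changes of BAK1 and BAX was not tested.

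**Figure D2:**
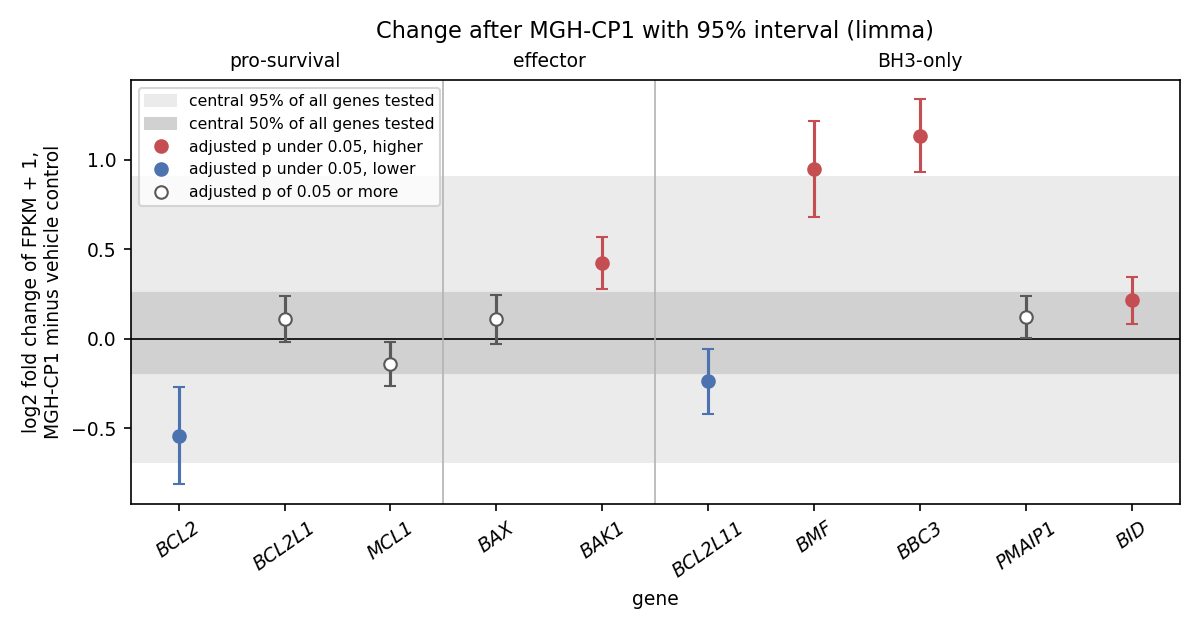
The log2 change of log2(FPKM + 1), MGH-CP1 minus vehicle control, for each of the 10 genes by role, with 95% limma intervals (n = 2 libraries per group), filled where the adjusted p was under 0.05, and with the central 50% (-0.19 to 0.25) and 95% (-0.69 to 0.90) of all genes tested shaded. BBC3 (1.13) and BMF (0.95) lie above the wider band, BCL2 (-0.54) is the lowest of the 10 and lies inside it, and the intervals of BCL2L1 and BAX span 0.

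Of the 5 BH3-only genes 3 rose, beside 27.1% of all genes tested, and a count over 5 genes is no result about the group. The changes of BBC3 and BMF were larger than those of the other genes of the 10. BBC3 encodes PUMA, a BH3-only protein that binds all the main pro-survival proteins and is induced by FOXO factors among others. BBC3 (ENSG00000105327, chr19:47724081-47736023, minus strand) measured 3.25 and 3.86 FPKM with vehicle and 8.92 and 9.04 FPKM with MGH-CP1. The treated libraries lay close to each other and far above the controls, at 292 to 295 fragments against 152 to 181. The mean rose from 3.55 ± 0.433 to 8.98 ± 0.0848 FPKM (SD, n = 2), a ratio of 2.53, with a log2 change of 1.13 and a standard error of 0.09 (limma adjusted p = 5.4e-05). Only 138 genes, or 1.14% of those tested, had a larger log2 change.

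BMF encodes a BH3-only protein known for cell death after loss of attachment and for its tie to the cytoskeleton. BMF (ENSG00000104081, chr15:40380091-40401093, minus strand) measured 1.17 and 1.00 FPKM with vehicle and 3.27 and 2.80 FPKM with MGH-CP1. Both treated libraries lay above both controls, and BMF was the scarcest family transcript in the vehicle libraries, at 120 to 140 fragments. The antisense gene RP11-521C20.3, which overlaps BMF, had 0 fragments in every library. Its mean rose from 1.09 ± 0.120 to 3.04 ± 0.331 FPKM (SD, n = 2), a ratio of 2.79. The log2 change was 0.95 with a standard error of 0.12 (limma adjusted p = 0.000367), and 2.09% of the genes tested had a larger one. The ratio of BMF exceeds that of BBC3 while its log2 change is smaller, since adding 1 to the FPKM dampens the change of scarce genes.

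BCL2L11, which encodes BIM, an activator of the effectors and the partner of many pro-survival proteins, went the other way. BCL2L11 (ENSG00000153094, chr2:111876955-111926024, plus strand) measured 7.28 and 7.30 FPKM with vehicle and 5.70 and 6.38 FPKM with MGH-CP1. Both treated libraries lay below both controls, and the mean fell from 7.29 ± 0.0165 to 6.04 ± 0.476 FPKM (SD, n = 2), with a log2 change of -0.24 (limma adjusted p = 0.0353). The call was lost with no filter on low values (limma adjusted p = 0.109) and without the first vehicle, the second vehicle or the first MGH-CP1 library (0.101, 0.0983 and 0.183 in that order).

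BID, whose protein is cut by caspase-8 and so carries a death receptor signal to the mitochondria, rose by a small amount. BID (ENSG00000015475, chr22:18216906-18257536, minus strand) measured 16.1 and 15.8 FPKM with vehicle and 18.3 and 19.1 FPKM with MGH-CP1, without overlap. The log2 change was 0.21 (limma adjusted p = 0.0151), and the call was lost without the second vehicle library (limma adjusted p = 0.0521) and without the second MGH-CP1 library (0.0832). PMAIP1, which encodes NOXA, a BH3-only protein that binds MCL1, was the most abundant of the 5. PMAIP1 (ENSG00000141682, chr18:57567180-57571538, plus strand) measured 50.9 and 50.8 FPKM with vehicle and 57.2 and 53.7 FPKM with MGH-CP1. Its libraries did not overlap, but the log2 change of 0.12 did not pass (limma adjusted p = 0.0791). It passed under quantile normalization (0.17, limma adjusted p = 0.0249) and with all libraries thinned to the shallowest (0.15, limma adjusted p = 0.0469).

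All 6 calls above rest on limma sharing the variance between genes. With a separate variance for each gene, the unadjusted p was 0.0073 for BBC3, 0.0114 for BMF, 0.0195 for BID, 0.0267 for BCL2, 0.0361 for BAK1 and 0.0753 for BCL2L11. None of the 10 genes passed after adjustment (limma without shared variance, lowest adjusted p = 0.0651), and 13 of all genes did, while 4947 had an unadjusted p under 0.05. An exact permutation test of a single gene cannot go below p = 0.333 with 2 libraries against 2.

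Sequences before the annotated starts are shown for the genes with the largest rise (BBC3, BMF, BAK1) and for BCL2L11, which alone held the FOXO motif. They come from RefSeq windows on GRCh38.p14, not the hg19 build of the expression table, and were trimmed to the longest run outside annotated exons. All of the genes but MCL1 matched an entry, with 15 windows in all. In each line the 5′ to 3′ sequence is in lower case, and capitals mark a match on either strand to a motif searched: GGAATG (TEAD), GTAAACA (FOXO), CACGTG (E-box), GGGCGG (GC box), CCAAT or TGATGNAA (CHOP-ATF4). The windows are chr19:47232767-47232917 for BBC3, chr15:40108893-40109129 for BMF (the first of 2 windows), chr6:33580294-33580526 for BAK1, all on the minus strand, and chr2:111120664-111120913 on the plus strand for BCL2L11.
BBC3: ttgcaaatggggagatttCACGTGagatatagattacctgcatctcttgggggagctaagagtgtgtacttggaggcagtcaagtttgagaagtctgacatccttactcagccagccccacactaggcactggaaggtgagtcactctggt
BMF: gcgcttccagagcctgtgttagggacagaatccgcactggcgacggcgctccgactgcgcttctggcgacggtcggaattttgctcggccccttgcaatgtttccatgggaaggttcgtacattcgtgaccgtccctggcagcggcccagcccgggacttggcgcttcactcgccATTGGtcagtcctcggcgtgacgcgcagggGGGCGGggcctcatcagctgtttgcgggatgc
BAK1: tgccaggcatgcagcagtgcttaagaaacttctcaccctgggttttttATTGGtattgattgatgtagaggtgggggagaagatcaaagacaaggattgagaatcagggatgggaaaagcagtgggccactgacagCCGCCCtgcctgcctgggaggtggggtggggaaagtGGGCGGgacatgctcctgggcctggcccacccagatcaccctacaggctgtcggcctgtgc
BCL2L11: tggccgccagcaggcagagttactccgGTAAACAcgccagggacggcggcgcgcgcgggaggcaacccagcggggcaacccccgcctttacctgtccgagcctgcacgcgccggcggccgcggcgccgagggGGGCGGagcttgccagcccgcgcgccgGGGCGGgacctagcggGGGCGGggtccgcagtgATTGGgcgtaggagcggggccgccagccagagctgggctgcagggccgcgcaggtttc
The capitals in BBC3 are an E-box, and those in BMF and BAK1 are CCAAT and GC boxes. BBC3 also holds a CCAAT box in the part of its window that was trimmed away, and the second BMF window holds none of the motifs. The counts below use the full windows. BCL2L11 holds a FOXO motif beside a CCAAT box and GC boxes. The TEAD motif was found in 0 of the 15 windows and in 11.9% of all 35116 RefSeq windows of 250 bases before a start. The FOXO motif was in 1 of 15 windows and 2.98% of all, the E-box in 4 (BAX, BBC3, BID) and 6.34%, the GC box in 9 and 42.6%, CCAAT in 5 and 32.0%, and the CHOP-ATF4 motif in 0 and 3.14%. Several windows of BID overlap one another, and its E-box is the same site seen in more than 1 window. Counted by gene, the E-box was found before 3 genes and the GC box before 6. The 15 windows are therefore not independent, and no excess over all windows can be read from these counts. A match describes letters only, and enhancers farther away were not examined.

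The order of abundance, read on the FPKM scale, was stable at the top and changed at the bottom. In all 4 libraries BCL2L1 was highest, followed by MCL1, BAX, PMAIP1, BAK1 and BID. With vehicle the order then ran BCL2L11, BBC3, BCL2 and BMF, and with MGH-CP1 it ran BBC3, BCL2L11, BMF and BCL2, so BBC3 passed BCL2L11 and BMF passed BCL2. The closest neighbours were PMAIP1 and BAK1 with MGH-CP1, where the lowest PMAIP1 value was 53.7 FPKM and the highest BAK1 value 53.0 FPKM, a gap smaller than the spread within either gene. BCL2L1 made up 72.3% and 73.5% of the summed pro-survival FPKM with vehicle and 76.9% and 75.9% with MGH-CP1, whereas BCL2 made up 0.636% and 0.593% and then 0.291% and 0.354%. Within the BH3-only sum PMAIP1 made up 64.6% and 64.5% with vehicle and 61.2% and 59.0% with MGH-CP1, and BBC3 went from 4.13% and 4.90% to 9.54% and 9.93%. The large relative change of BBC3 was therefore a change in a small share of the BH3-only transcripts.

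Ratios within a library do not depend on how the libraries are scaled to each other. The pairs below were chosen after the values were seen, and pairs and sums are given as descriptions without a test. The summed effector FPKM over the summed pro-survival FPKM was 0.275 and 0.283 with vehicle and 0.328 and 0.316 with MGH-CP1, a fold of 1.15 ± 0.0332. The BH3-only sum over the pro-survival sum was 0.237 and 0.220 with vehicle and 0.269 and 0.251 with MGH-CP1, a fold of 1.14 ± 0.0657. For both folds the ± is the SD over every quotient of a treated and a vehicle library. These quotients reuse the same libraries, so it is not a spread between replicates. Both ratios lay higher in the treated libraries. BCL2L1, MCL1, BAX and PMAIP1 made up most of the sums, but BAX and PMAIP1 did not give most of the rise of theirs. The mean of BAK1 went from 38.7 to 52.2 FPKM and that of BAX from 57.6 to 62.1 FPKM. The mean of BBC3 went from 3.55 to 8.98 FPKM and that of PMAIP1 from 50.8 to 55.5 FPKM. Leaving out the most abundant gene of each group (BAX, PMAIP1 and BCL2L1) gave folds of 1.50 and 1.47 in that order. The effectors were then BAK1 alone, and the pro-survival sum was MCL1 with the scarce BCL2. The 1.50 is thus close to the fold of BAK1 over MCL1 (1.49). The BH3-only sum over the effector sum overlapped between the groups (0.863 and 0.777 against 0.818 and 0.796).

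Pairs of a death gene and a survival gene spread widely around these sums. BBC3 over MCL1 stood at a fold of 2.79 of its vehicle mean, BMF over BCL2L1 at 2.58 and BBC3 over BCL2L1 at 2.35. BAK1 over MCL1 stood at 1.49 and PMAIP1 over MCL1 at 1.21, both without overlap between the groups. BAX over BCL2L1 was 0.228 and 0.230 with vehicle and 0.229 and 0.229 with MGH-CP1, so the ratio overlapped between the groups. BCL2L11 over BCL2L1 stood lower, at 0.766 of its vehicle mean, and BBC3 over BCL2L11 went from 0.447 and 0.529 to 1.56 and 1.42.

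**Figure D3:**
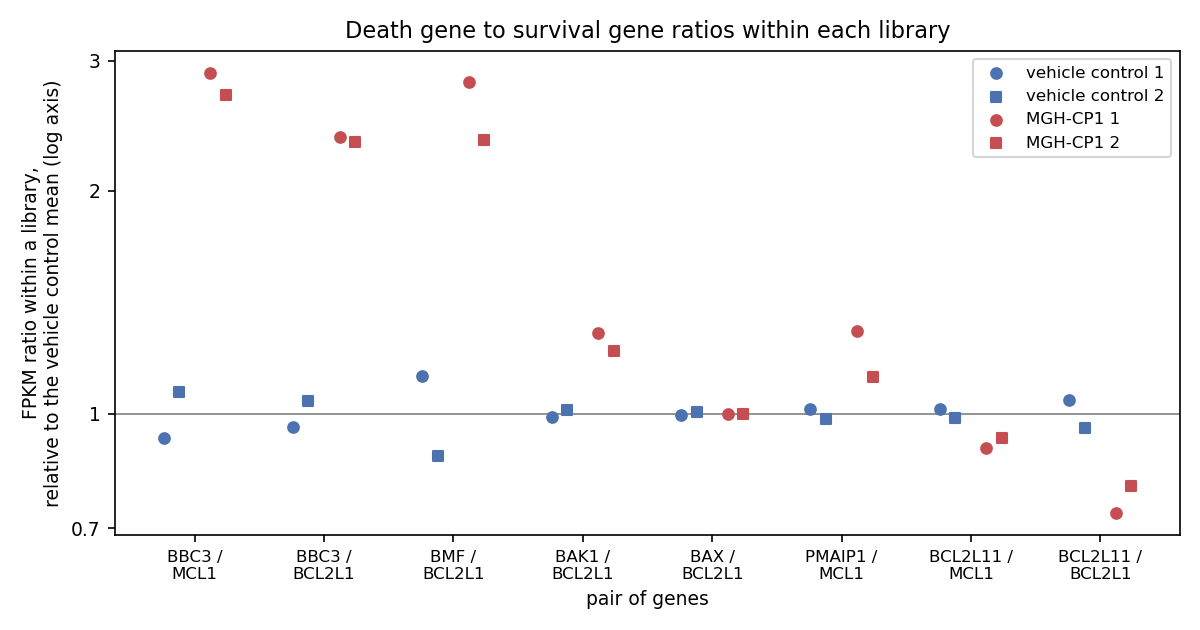
Ratios of FPKM between pairs of family genes in each library, divided by the mean of the vehicle control libraries and drawn on a log axis, with 1 point per library. BBC3 over MCL1 lies at a fold of 2.79, BAX over BCL2L1 stays at 1.00, and BCL2L11 over BCL2L1 lies lower at 0.766.

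Around these 10 genes, 61 other genes of the apoptosis machinery were listed from general knowledge, and 52 of them passed the filter. Of those 52, 19 rose, 15 fell and 18 did not pass, so 65.4% were called where 50.8% of all genes were, and the median log2 change was 0.08. Among 13 other BCL2 family genes 7 were tested and 4 of them rose. These were BNIP3 and BNIP3L, mitochondrial receptors best known for mitophagy, the pro-survival BCL2L2 (BCL-W) and BCL2L13. BNIP3 went from a mean of 165 to 259 FPKM (log2 change 0.65, limma adjusted p = 4.75e-05), and BCL2L2 from 8.82 to 10.9 FPKM (0.28, limma adjusted p = 0.00937). The call of BCL2L2 was lost without the first vehicle library (limma adjusted p = 0.0528).

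Across the lists of outer membrane channels, apoptosome and released proteins, other caspases and inhibitors of apoptosis, the changes were mixed. The counts in these short lists stand beside 27.1% of all genes rising and 23.8% falling. CYCS, which encodes cytochrome c, fell from a mean of 42.1 to 30.1 FPKM (log2 change -0.47, limma adjusted p = 0.000454), and of 3 channel genes of the outer membrane VDAC1 (-0.27) and VDAC3 (-0.16) fell. Of 6 tested genes of the apoptosome and the released proteins, CYCS and APAF1 (-0.23) fell while CASP9 (0.30) and HTRA2 (0.33) rose. Of the 6 other caspases 2 rose and 2 fell, among them CASP8 (log2 change 0.20) up and CASP2 (-0.38) down. Of the 5 inhibitor of apoptosis genes tested, BIRC3 rose from 18.2 to 27.1 FPKM (0.55, limma adjusted p = 0.000389) and 3 fell, most of all BIRC5, which encodes the mitotic protein survivin and went from 10.1 to 6.13 FPKM (-0.63).

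In the list of death receptor genes 0 of the tested genes fell in this fit, while 1 fell under quantile normalization and 1 without the second vehicle library. Of its 11 tested genes 7 rose and 4 did not pass, and the median log2 change was 0.39, against 0.01 over all genes and 27.1% of all genes rising. TNFSF10, the ligand TRAIL, went from a mean of 62.0 to 106 FPKM (log2 change 0.77, limma adjusted p = 0.000121). TRADD, an adaptor of TNF receptor signalling, went from 6.33 to 12.6 FPKM (0.89, limma adjusted p = 0.000148), and the receptor TNFRSF1A rose by 0.46. The receptor FAS had the lowest log2 change of the tested genes of the list, with 2.53 and 1.77 FPKM in the vehicle libraries and 1.58 and 1.58 FPKM with MGH-CP1. Its log2 change of -0.28 did not pass (95% interval from -0.59 to 0.04, limma adjusted p = 0.123), and FAS is named here after its values were seen. The decoy receptor TNFRSF10C rose too (0.76, limma adjusted p = 0.00431), on 39 to 91 fragments per library. The list thus mixes genes with opposite roles in death signalling, and its count gives no direction of that signalling.

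Among 9 tested genes of transcription factors known to act on BH3-only genes, 3 rose and 4 fell, where 27.1% of all genes rose and 23.8% fell. FOXO4 went from a mean of 2.66 to 5.42 FPKM (log2 change 0.81, limma adjusted p = 0.000376), and FOXO1 (0.35) and DDIT3, which encodes CHOP (0.37), rose as well. Those that fell include E2F1 (-0.44), TP73 (-0.42) and MYC (-0.21). Of 5 genes for the turnover of MCL1 0 rose and 2 fell. Of these, the ubiquitin ligase gene HUWE1 fell from 46.0 to 30.7 FPKM (-0.57, limma adjusted p = 0.000133) and the deubiquitinase gene USP9X by less (-0.17). Of the 31 genes named from these lists, 14 lost the call in at least 1 of the 4 fits that leave out a library: APAF1, BCL2L13, BCL2L2, BIRC2, BIRC6, CASP8, CASP9, DDIT3, FOXO1, HTRA2, MYC, TP73, USP9X and VDAC3.

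**Figure D4:**
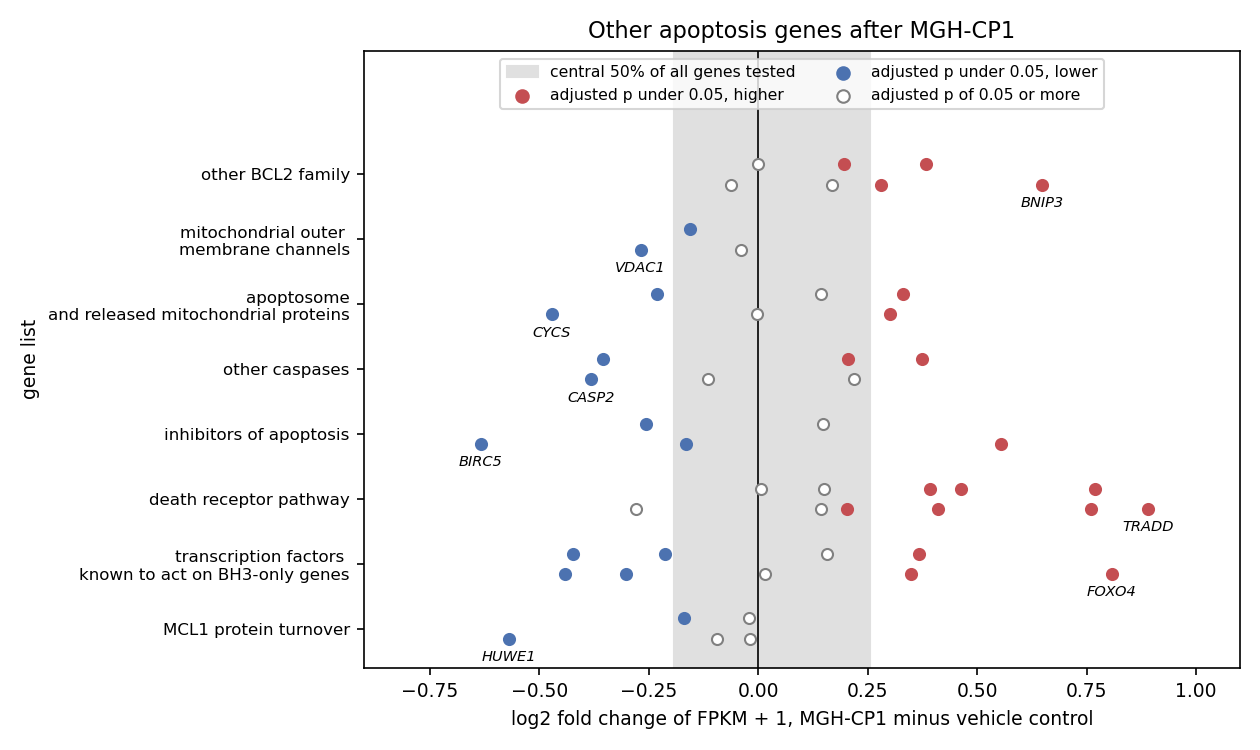
The log2 change of log2(FPKM + 1), MGH-CP1 minus vehicle control, of the 52 other apoptosis genes tested, 1 row per list and 1 point per gene, filled red (higher) or blue (lower) where the limma adjusted p was under 0.05, with the central 50% of all genes tested shaded (-0.19 to 0.25). The death receptor row lies mostly to the right of 0 (median 0.39), with TRADD (0.89) farthest out, and CYCS (-0.47), BIRC5 (-0.63) and HUWE1 (-0.57) are the lowest of their rows.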

How the data were processed

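RNA of MDA-MB-231 cells was sequenced after poly-T selection, and the authors deposited FPKM values per gene, computed from gene length and the fragments on the listed genes, with coordinates. The submitters' processing notes name CASAVA 1.8, STAR and the build hg19, and the counting tool and its strand setting are not given in the sources used here. Columns named CP1 and DMSO were matched to the MGH-CP1 and vehicle control samples by condition and number. Multiplied by length, 100% of the values above 0 are whole fragments (tolerance 0.01), which gives the depths stated.

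Genes averaging 1 FPKM or more (12080) were compared on log2(FPKM + 1) by limma 3.58.1 under R 4.3.3, using two-sided moderated statistics from eBayes (variance trend on, prior degrees of freedom 5.97), adjusted by Benjamini-Hochberg at 0.05. All 10 genes are named, and from each other list at most 4 called genes a direction, by the size of the log2 change, where treated and vehicle libraries did not overlap. Genes overlapping a family gene are named or counted. Some genes of these lists are not reported here. The members and lists were chosen with earlier results of these data known.

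Alternatives were another pseudocount, other filters, median-ratio and quantile scaling, a replicate block, no trend, no shared variance, limma voom on recovered fragments, thinning and leaving out each library. Intervals cover the spread between these libraries only.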

Additional observations from a re-analysis of the deposited data

How the results depend on the processing

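The rises of BBC3, BMF and BAK1 kept their direction under each setting that tested them, and of these settings only the one with no shared variance lost the calls. BMF was not tested at a mean of at least 5 FPKM, where 3 family genes rose. Without a filter on low values, 1844 genes fell, 0 of the 10 family genes fell, and 11 of the other apoptosis genes rose and 7 fell. With no shared variance, 9 genes rose and 4 fell, 0 and 0 of the family, and 1 and 0 of the other apoptosis genes. Leaving out 1 library in turn gave 2512 to 2991 genes higher and 2129 to 2549 lower, 3 to 5 family genes higher and 1 to 3 lower, and 12 to 15 other apoptosis genes higher and 10 to 13 lower. Without BCL2L1, BAX and PMAIP1, the most abundant gene of each group, the BH3-only to pro-survival fold was 1.47 and the effector to pro-survival fold 1.50. The latter then sets BAK1 alone against MCL1 and BCL2, so it is no separate check of the group ratio. Quantile normalization reversed the log2 change of BCL2L1 to -0.018. Over all genes tested, samples of 1 replicate number deviated together only weakly (correlation 0.0777). The labels do not say whether they share more than the number, so any pairing is unknown. With the replicate block, 3466 genes rose and 3052 fell, with 4 family genes higher and 3 lower, MCL1 being added, and 19 and 15 other apoptosis genes. The causes of these changes were not tested. With 2 libraries per group and the MGH-CP1 libraries the shallower ones, small changes such as those of BAX, BCL2L1, MCL1 and PMAIP1 cannot be settled.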

Other observations

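6 other BCL2 family genes lay below the filter and were not compared. BCL2A1, a pro-survival gene, had 0 fragments in every library. HRK had 0 to 4 fragments, BCL2L10 0 to 1, BCL2L14 1 to 3 and BCL2L15 4 to 8. BIK, a BH3-only gene of epithelial cells, had 14 to 33 fragments.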
